A study of Homo sapiens with 9 samples.

Results

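The genes described here are 60 of the 60662 genes in an RNA-seq table of SET2 cells. They lie in 2 stretches of the long arm of chromosome 5, 36 of them between 130 and 140 Mb (the region of bands 5q31) and 24 between 150 and 170 Mb (the region of bands 5q33 to 5q34; gene starts, GRCh38). SET2 is an established JAK2 mutant megakaryoblastic leukemia line, here labelled as acute myeloid leukemia (AML) that followed a myeloproliferative neoplasm. The table holds untreated wild-type (WT) SET2 (n = 3 libraries) and untreated DYRK1A knockout (KO) SET2 of clone 11H1 (n = 3) and of clone 14B5 (n = 3). Cas9 ribonucleoprotein was nucleofected, single cells were sorted, and each clone is the progeny of 1 of them, kept because all of its indels were out of frame; the libraries of a clone thus share a founder. No clone of unedited SET2 was among the samples analysed here. The labels do not say whether libraries of a group came from separate cultures, so p values measure the spread between these libraries, which may be technical.

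The 60 genes were chosen on measured values of these same libraries: they are genes of both stretches picked because the stretches were lower in both clones, with del(5q) genes such as RPS14 and CSF1R among them and with some that stayed level or rose. Their differences between a clone and WT are therefore a description: where members are called lower or higher than WT, the threshold sorts them on the contrast that chose them, and it tests nothing about them. The difference between the clones was not used to choose them and was tested.

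Loss of part of 5q is among the most frequent chromosome lesions of myelodysplastic syndrome and AML. Cells with del(5q) keep 1 copy of the genes in the lost part, and their RNA is then usually reduced without being absent. Several genes named here have been studied as dosage-sensitive in that setting, among them RPS14 (a protein of the small ribosomal subunit), HSPA9 (a mitochondrial chaperone), SPARC (a matrix protein), CTNNA1 (alpha-catenin) and TNIP1 (a restraint on NF-kB signaling). DYRK1A, the targeted gene, lies on chromosome 21. It is a kinase that phosphorylates LIN52 and so promotes assembly of the DREAM complex, which represses cell cycle genes through promoter elements such as the cell cycle genes homology region (CHR).

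Libraries held 32347779 to 60272245 expected counts, and levels are given as CPM (counts scaled to a library of fixed size) on normalized library sizes. Mitochondrial genes took 3.54% to 6.03% of WT counts, 7.23% to 7.39% of those of 11H1 and 3.30% to 3.92% of those of 14B5. DYRK1A RNA itself stood at 197, 196 and 218 CPM in WT, at 188, 191 and 192 in 11H1 and at 191, 182 and 174 in 14B5. All clone libraries were below all WT libraries for DYRK1A, with log2 fold changes of -0.09 (11H1) and -0.17 (14B5), and indels need not remove the RNA. Of 9 megakaryocyte markers 7 averaged 1 CPM or more, and WT libraries summed to 1702 to 1731 CPM of them, those of 11H1 to 1324 to 1377 and those of 14B5 to 1266 to 1297. Summed levels of 4 T cell markers (0.519 to 4.38 CPM over all libraries), 4 neutrophil markers (0.791 to 2.37) and 4 fibroblast markers (0.284 to 2.34) were low, and those of 4 B cell markers (23.3 to 45.6) and 4 epithelial markers (39.5 to 52.3) higher, with no marker of any list at 0 in all libraries.

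Most members were lower in both clones than in WT, by amounts that differed between members. The quartiles of the tested members were log2 fold changes of -0.85 and -0.35 in 11H1 and of -0.70 and -0.27 in 14B5, and among the members called lower in both clones the mean in 11H1 ran from 3.39% of WT (P4HA2) to 87.2% (DDX46). In 11H1 against WT, 49 of the 58 members that passed the filter on low counts were lower at the threshold (edgeR quasi-likelihood test, Benjamini-Hochberg adjusted p under 0.05), 5 were higher and 4 did not pass. That is 84.5% of the tested members, where 32.8% of all 16675 tested genes were lower and 31.8% higher. In 14B5 against WT, 47 of 58 were lower (81.0%), 2 were higher and 9 did not pass, where 28.7% of all 16537 tested genes were lower and 24.9% higher. The contrasts chose the members, so nothing is read from these shares. ACSL6 and TGFBI did not pass the filter. In bulk RNA, fewer cells with a transcript and less of it per cell cannot be told apart.

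The median log2 fold change of the members was -0.55 in 11H1 and -0.43 in 14B5, where the median over all tested genes was -0.01 in both. The 2 contrasts share the WT libraries; 46 members were lower in both, as the choice asked for, and 2 were higher in both (SLC22A4 and SLC22A5). DOCK2 was higher in 11H1 and lower in 14B5, and RAPGEF6, FNIP1, ADAM19 and HMMR passed in neither. Every 11H1 library was below every WT library for 50 of the 58 tested members (86.2%; 35.3% of all tested genes) and above for 6 (10.3%; 33.4%). Every 14B5 library was below for 47 (81.0%; 31.1%) and above for 3 (5.17%; 29.8%).

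Library by library, the shift was even. Over the 53 members that averaged 1 CPM or more, the median difference from the WT mean (log2 of CPM plus 0.5) was -0.53, -0.50 and -0.51 in the 11H1 libraries, -0.40, -0.43 and -0.43 in 14B5, and -0.01, -0.03 and 0.04 in the WT libraries themselves. Summed over all 60 members, the level was 5712 to 5859 CPM in WT, 3790 to 3871 in 11H1 and 4049 to 4129 in 14B5. No library of a clone came near the WT range, and libraries of 1 clone differed from each other by far less than either clone differed from WT. The members were chosen on these values, so their distance from WT is a description. Over 13573 genes tested in both clones against WT that averaged 1 CPM or more, the same median was near 0. It was -0.017 to -0.002 in the 11H1 libraries and 0.031 to 0.048 in those of 14B5.

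**Figure D1:**
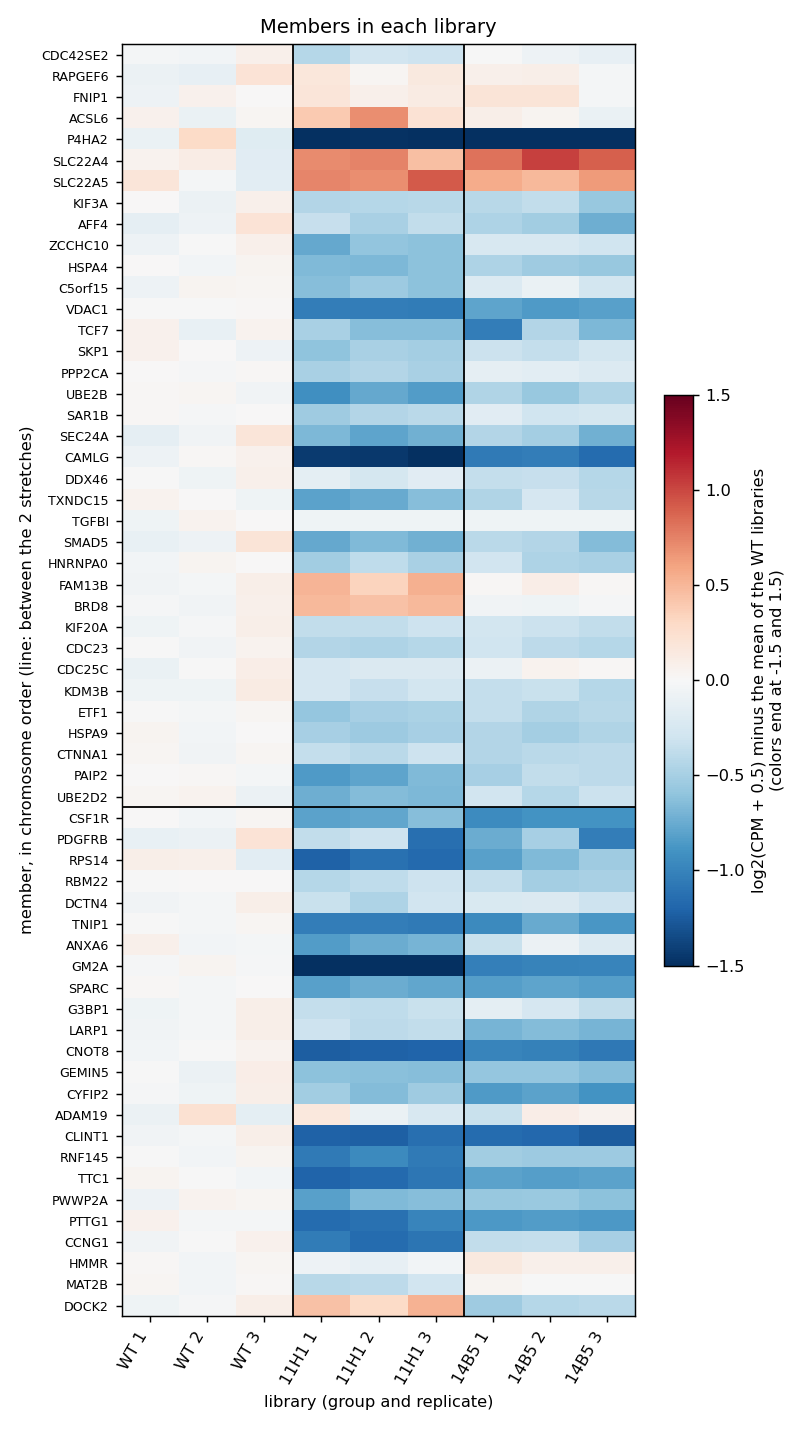
Each row is a member in chromosome order and each column a library; color is log2(CPM + 0.5) minus the mean of the WT libraries, and the black line parts the 36 members of 130 to 140 Mb from the 24 of 150 to 170 Mb. Most rows are blue in all 6 clone libraries, with SLC22A4 and SLC22A5 red in both clones and ACSL6 (near the floor), FAM13B, BRD8 and DOCK2 red mainly in 11H1.

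The shift was not confined to the members. Of 85 other tested genes of the same stretches, 68 were lower and 6 higher in 11H1 (80% and 7.06%, against 32.8% and 31.8% of all genes). In 14B5, 59 were lower and 4 higher (69.4% and 4.71%, against 28.7% and 24.9% of all genes). The medians were -0.48 and -0.49, and these stretches were also what the choice rested on. Among the 5-Mb bins of the 2 stretches the median was deepest at 160 to 165 Mb, at -1.13 in 11H1 and -0.86 in 14B5 (14 genes tested), and the members of 150 to 170 Mb had lower medians (-0.76 and -0.66) than those of 130 to 140 Mb (-0.47 and -0.40). The 10 Mb that part the stretches gave no members, but where the stretches begin and end rests on values of these same libraries. The shares there are therefore a description as well. There 43 of 85 tested genes were lower (50.6%; all genes 32.8%) and 15 higher (17.6%; 31.8%) in 11H1, with a median of -0.29. In 14B5, 50 of 83 were lower (60.2%; all genes 28.7%) and 2 higher (2.41%; 24.9%), with a median of -0.42. The 15 higher became 9 without 11H1 replicate 1 and 9 with the DESeq2 Wald test, and the 2 became 4 without WT replicate 3 and 1 with protein-coding genes alone. That interval holds the clustered protocadherin genes, adhesion proteins best known from neurons. Of them 13 of 29 were higher and 3 lower in 11H1 (44.8% and 10.3%, against 31.8% and 32.8% of all genes). In 14B5, 1 of 28 was higher and 10 lower (3.57% and 35.7%, against 24.9% and 28.7%). Between the clones, 15 of 27 were higher in 11H1 and 1 lower (55.6% and 3.70%, against 31.6% and 32.1%). Without the protocadherins, a split made after their values were seen, 40 of 56 genes of the interval were lower in 11H1 (71.4%, all genes 32.8%). In 14B5, 40 of 55 were lower (72.7%, all genes 28.7%). The medians were -0.44 and -0.42.

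Taken whole, the arm on either side was nearer to 0: tested genes of 5q below 130 Mb had a median of -0.13 in 11H1 and -0.01 in 14B5, and those above 170 Mb had -0.08 and -0.01. Single bins next to the stretches were not all near 0. The bin of 120 to 125 Mb had medians of -0.45 (12 genes tested) and -0.43 (11 genes), as low as those of 130 to 135 Mb (-0.40 and -0.34, 40 genes). In 11H1 the bins of 115 to 120, 125 to 130 and 170 to 175 Mb had -0.27, -0.25 and -0.23, where 14B5 had -0.03, -0.06 and -0.06. The edges are given by the genes next to them. CHSY3, the last tested gene before 130 Mb, changed by 0.02 in 11H1 and 0.27 in 14B5 (edgeR adjusted p = 0.950 and 0.238), although ADAMTS19 just before it fell by 1.80 and 3.85 on the log2 scale. Past the edge lay HINT1 (-0.64 and -0.31), LYRM7 (-0.23 and 0.08) and then CDC42SE2, the first member. At the inner edges, the 3 tested genes on each side of 140 and 150 Mb were below 0 in both clones, except SLC26A2 in 14B5 (0.08). Among them PURA, just past 140 Mb, stood at -0.66 and -0.38. At the far end DOCK2 was the last member inside 170 Mb. SPDL1, the tested gene before it, stood at 0.24 and 0.20, and LCP2, the next tested gene past it, at -0.16 and 0.03. In the last bin before that edge, 165 to 170 Mb, 5 of 8 tested genes were lower and 2 higher in 11H1. In 14B5, 2 were lower and 1 higher. The medians were -0.30 and -0.16, and of all genes 32.8% (11H1) and 28.7% (14B5) were lower.

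**Figure D2:**
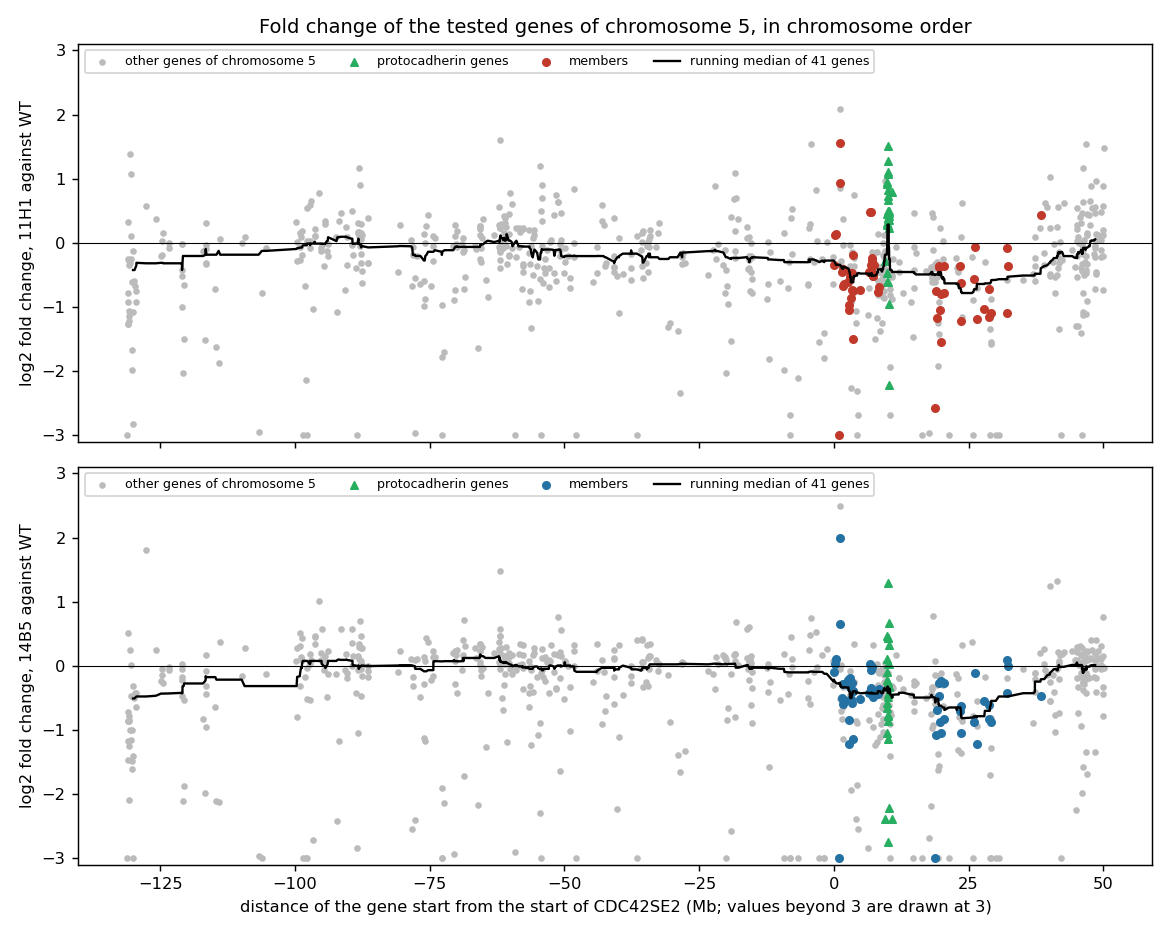
Each point is a tested gene of chromosome 5 placed by the distance of its start from the start of CDC42SE2 in Mb, with its log2 fold change against WT on the y axis (values beyond 3 drawn at 3); colored points are members, green triangles protocadherins, and the black line is a running median of 41 genes. The line is low over the start of the short arm and again from about the first member to the last in both clones, apart from a rise above 0 at the protocadherins in 11H1; before the first member it lies somewhat below 0 in 11H1 and close to 0 in 14B5, and past the last it returns toward 0.

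Among the 10 members of RNA processing and translation, all 10 were lower in both clones (medians -0.48 and -0.46). Of all genes 32.8% were lower in 11H1 and 28.7% in 14B5. The side of the members rested on the choice, so the counts of this and the other role groups are a description. RPS14 (chr5:150442635-150449756, minus strand), needed to mature the small ribosomal subunit, stood at 651, 649 and 550 CPM in WT, at 265, 283 and 273 in 11H1 and at 349, 387 and 426 in 14B5. The groups did not overlap, and 14B5 lay between 11H1 and WT. Its mean was 44.4% of WT in 11H1 (log2 fold change -1.17 ± 0.07, SE) and 62.8% in 14B5 (-0.69 ± 0.08). CNOT8 (chr5:154857553-154876793, plus strand), a deadenylase of the CCR4-NOT complex, fell further in 14B5 than RPS14 did: from 146, 149 and 156 CPM in WT to 63.6, 64.6 and 65.0 in 11H1 and 75.1, 74.1 and 70.8 in 14B5. LARP1, which binds mRNAs of ribosomal proteins, showed the opposite order of the clones, with 459, 467 and 506 CPM in WT, 383, 364 and 368 in 11H1 and 294, 303 and 293 in 14B5.

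The other 7 of this group ran from 58.6% to 87.2% of WT in 11H1 and from 65.5% to 83.9% in 14B5. PAIP2, an inhibitor of the poly(A)-binding protein, was at 58.6% of WT in 11H1 and 74.6% in 14B5. GEMIN5, the RNA-binding subunit of the SMN complex, was at 64.2% and 65.5%. ETF1, the factor that ends translation at stop codons, was at 69.8% and 75.2%. HNRNPA0, an RNA-binding protein, was at 72.7% and 75.2%, RBM22, a spliceosome protein, at 77.0% and 72.9%, G3BP1, a stress granule protein, at 78.0% and 83.9%, and the splicing helicase DDX46 at 87.2% and 76.7%.

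RPS14 can be set beside the other proteins of its subunit, whose genes the choice did not use. Of 31 other 40S protein genes, 30 were lower in 11H1 and none higher (96.8%; all genes 32.8%), with a median of -0.45, whereas 3 of 31 were lower in 14B5 and none higher (9.68%; all genes 28.7%), with a median of -0.09. Between the clones 29 of the 31 were lower in 11H1 at the threshold. RPS14 was below all of them in both clones: the lowest of the 31 stood at -0.69 in 11H1 (RPS2) and -0.33 in 14B5 (RPS23). The side of RPS14 in this comparison rested on the choice, so its rank is a description. RPS23 is the 1 other gene of the list on chromosome 5, outside the stretches. In 11H1, then, RPS14 was down within a set that was down as a whole, and in 14B5 it was down within a set most of which did not pass the threshold.

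The 6 cell cycle members fell into 2 sets. PTTG1, CCNG1, CDC23 and KIF20A were lower in both clones, whereas CDC25C passed in 11H1 alone and HMMR in neither. PTTG1 encodes securin, the protein that holds separase inactive until anaphase (chr5:160421822-160428744, plus strand). It stood at 87.8, 82.4 and 82.1 CPM in WT, at 37.4, 38.5 and 42.1 in 11H1 and at 46.2, 46.7 and 46.1 in 14B5, or 46.8% and 55.1% of WT. CCNG1, cyclin G1, a p53 target (chr5:163437569-163446151, plus strand), stood at 139, 143 and 149 CPM in WT, at 69.0, 64.2 and 67.0 in 11H1 and at 111, 112 and 101 in 14B5. All clone libraries of both genes lay below all WT libraries, with the clones far apart for CCNG1 and closer for PTTG1.

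HMMR, a spindle protein (chr5:163460203-163491945, plus strand), lies close to CCNG1 and showed another pattern. It stood at 45.2, 43.4 and 45.5 CPM in WT, at 42.3, 41.1 and 43.4 in 11H1 and at 49.6, 47.3 and 47.3 in 14B5, which is 94.6% and 108% of WT. CDC25C, the phosphatase that activates CDK1 at entry to mitosis, was at 84.6% of WT in 11H1 and 99.6% in 14B5. KIF20A, a kinesin of cytokinesis, was at 78.4% and 79.7%, and CDC23, a subunit of the anaphase-promoting complex (APC/C), at 73.3% and 77.1%.

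Genes of G2 and M phase on other chromosomes were mostly higher. Of 25 tested, 21 were higher and 1 lower in 11H1 (84% higher; all genes 31.8%), with a median of 0.24, and 18 were higher and 1 lower in 14B5 (72%; all genes 24.9%), with a median of 0.35. Among them FOXM1, a driver of G2/M transcription, rose by 0.70 and 0.59 on the log2 scale, UBE2C, the ubiquitin carrier of the APC/C, by 0.56 and 0.74, and TOP2A, a topoisomerase of dividing cells, by 0.32 and 0.38 (each past the threshold by edgeR). BUB1, a spindle checkpoint kinase, was the 1 that fell (by 0.91 and 0.60). All 4 G2/M members (PTTG1, KIF20A, CDC25C and HMMR) were below the median of that list in both clones, HMMR and CDC25C by less than the others. The members' side of this rested on the choice, so it is a description. Of 15 other APC/C genes, 2 were lower and 4 higher in 11H1 (13.3% and 26.7%; all genes 32.8% and 31.8%). In 14B5, 1 was lower and 7 higher (6.67% and 46.7%; all genes 28.7% and 24.9%). CDC23 itself stood at -0.44 and -0.39.

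**Figure D3:**
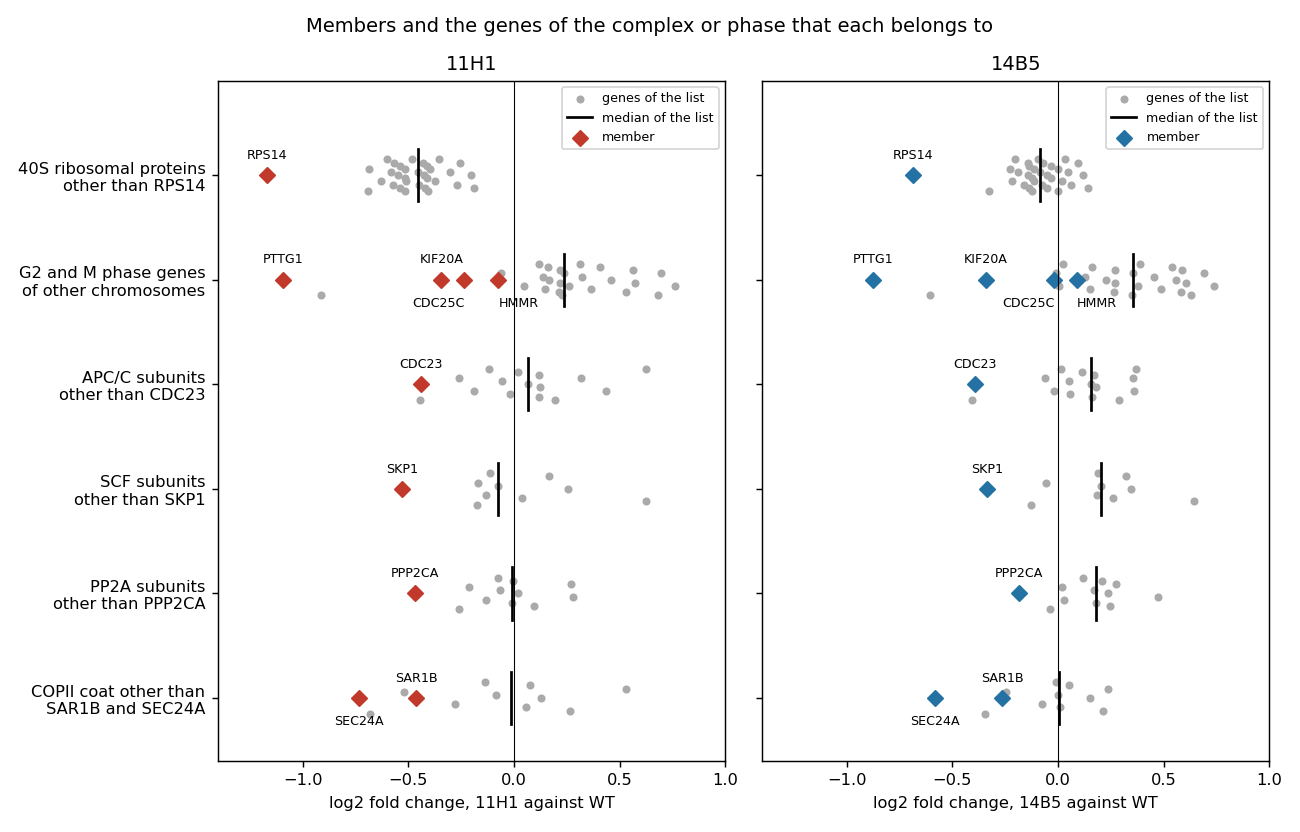
Log2 fold change against WT in 11H1 (left) and 14B5 (right) for members (diamonds, named) and for the genes of the complex or phase each belongs to (gray points; the bar is their median). RPS14 lies left of all 31 other 40S genes in both panels, and PTTG1 and KIF20A lie left of 0 while the median of the G2 and M genes lies right of it, at 0.24 and 0.35. The members' side of this rested on the choice.

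Pieces just upstream of a RefSeq transcript start of these 4 genes are shown because the CHR, through which DREAM acts on G2/M genes, has the usual letters TTTGAA (searched on both strands, as TTTGAA or TTCAAA), and because a related palindrome, TTTAAA, stands in its place in some promoters. Matches are in capitals, strands are those of the genes, positions count back from -1 at the base before the start, and sequences are from RefSeq promoters (GRCh38.p14). These starts lie inside the gene spans of GENCODE, which begin at its outermost transcript: by 6551 bases for CDC25C, 429 for HMMR, 393 for KIF20A and 33 for PTTG1. The spans printed above for HMMR and PTTG1 are those of GENCODE.
CDC25C, -42 to -13, minus strand, chr5:138331817-138331846: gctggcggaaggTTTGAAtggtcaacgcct
HMMR, -37 to -8, plus strand, chr5:163460595-163460624: gtggggagaTTTGAATTTGAAaccggtagg
KIF20A, -53 to -24, plus strand, chr5:138179059-138179088: cgcagcgcgtaaTTTAAAatattgtatctg
PTTG1, -41 to -12, plus strand, chr5:160421814-160421843: cgcgagttgtggTTTAAAccaggagtgcgc

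In these pieces CDC25C holds TTTGAA once and HMMR 2 times, and KIF20A and PTTG1 hold TTTAAA. Each piece was cut around a match shortly before a start, with TTTGAA looked for first, so holding a match was set by the search. A link between these letters and the fold changes was not tested. CDC25C has several listed starts, and from another of them the same match begins at base 44 of the transcript. TTTGAA was found in 15.2% of all 35116 promoter windows (250 bases before to 50 after a start), TTTAAA in 12.2%, and CCAAT (or ATTGG), a box often found beside a CHR, in 34.6%. By gene, 9 of the 59 members with a listed promoter held TTTGAA (15.3%; 18.2% of 27305 genes), 6 held TTTAAA (10.2%; 14.5%) and 33 held CCAAT (55.9%; 39.7%). A match describes letters only, and no binding was measured here. UBE2B was not matched.

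All 7 members of the ubiquitin, phosphatase and chaperone group were lower in both clones, where 32.8% (11H1) and 28.7% (14B5) of all genes were. Their medians were -0.64 and -0.48. RNF145, a ubiquitin ligase of the endoplasmic reticulum, stood at 98.1, 95.6 and 101 CPM in WT, at 46.7, 50.6 and 46.8 in 11H1 and at 68.6, 67.5 and 67.5 in 14B5. Its groups were fully separated, in the order 11H1, 14B5, WT. The ubiquitin-conjugating enzymes UBE2B and UBE2D2 were at 55.0% and 61.9% of WT in 11H1 and at 70.6% and 78.4% in 14B5. HSPA4, a cochaperone of the Hsp110 family, was at 63.7% and 69.6%.

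HSPA9, or mortalin, stood at 445, 419 and 433 CPM in WT, at 305, 296 and 306 in 11H1 and at 319, 304 and 316 in 14B5. Here the clones overlapped each other and both were clear of WT. SKP1, the adaptor of SCF ubiquitin ligases, was at 69.1% of WT in 11H1 and 80.2% in 14B5, and PPP2CA, a catalytic subunit of protein phosphatase 2A (PP2A), at 72.0% and 89.0%. Of 9 other SCF genes 3 were lower and 3 higher in 11H1 (33.3% each), and 6 were higher and none lower in 14B5 (66.7% higher). Of 11 other PP2A genes 3 were lower and 2 higher in 11H1 (27.3% and 18.2%), and 7 were higher and none lower in 14B5 (63.6% higher). Over all genes 32.8% were lower and 31.8% higher in 11H1, and 28.7% and 24.9% in 14B5. In 11H1 these partners were thus near or below the shares of all genes, and in 14B5 more of them were higher.

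All 6 members of vesicle traffic and motors were also lower in both clones, where 32.8% (11H1) and 28.7% (14B5) of all genes were. Their medians were -0.60 and -0.54. CAMLG, a membrane protein that receives tail-anchored proteins at the endoplasmic reticulum (chr5:134738501-134752160, plus strand), stood at 21.4, 22.8 and 23.6 CPM in WT, at 8.07, 8.01 and 7.69 in 11H1 and at 10.5, 10.7 and 9.92 in 14B5. CLINT1, a clathrin adaptor (chr5:157785743-157859175, minus strand), stood at 174, 176 and 191 CPM in WT, at 77.6, 76.9 and 82.3 in 11H1 and at 80.8, 79.5 and 75.9 in 14B5. The 3 groups of CAMLG were separated, and the clones overlapped for CLINT1, at 43.8% and 43.6% of WT. SEC24A and SAR1B, which select cargo for and start the assembly of the COPII coat, were at 59.7% and 72.4% of WT in 11H1 and at 67.5% and 84.2% in 14B5. Of 10 other COPII genes, 4 were lower and 3 higher in 11H1 (40% and 30%; all genes 32.8% and 31.8%). In 14B5, 2 were lower and 3 higher (20% and 30%; all genes 28.7% and 24.9%). KIF3A, a kinesin of cilia, was at 72.5% and 71.5%, and DCTN4, a dynactin subunit, at 77.8% and 83.8%.

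In metabolism and transport the members went both ways. GM2A, the activator protein for breakdown of ganglioside GM2 in lysosomes (chr5:151212150-151270440, plus strand), stood at 40.1, 41.9 and 40.1 CPM in WT, at 13.9 in each library of 11H1 and at 19.7 to 20.3 in the 3 of 14B5. That put 11H1 at 34.2% and 14B5 at 49.1% of WT, with the libraries of each clone close together. VDAC1, the main channel of the outer mitochondrial membrane, went from 231, 231 and 235 CPM in WT to 113, 112 and 112 in 11H1 and 134, 129 and 132 in 14B5. TXNDC15, a thioredoxin-fold membrane protein, was at 59.3% and 76.9%, and MAT2B, a regulatory subunit of S-adenosylmethionine synthesis, at 77.5% in 11H1 and 101% in 14B5.

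The carnitine transporter SLC22A5 (chr5:132369752-132395614, plus strand) rose: it stood at 2.26, 1.87 and 1.68 CPM in WT, at 3.54, 3.44 and 4.07 in 11H1 and at 3.07, 2.89 and 3.27 in 14B5. Its neighbor SLC22A4, a transporter of ergothioneine, had 28 counts over the 3 WT libraries, 72 in 11H1 and 133 in 14B5. Scaled for library size, these are 295% of WT (95% exact interval of the counts 188% to 474%) and 406% (268% to 634%), and such intervals cover counting error only. Both transporters thus rose inside a stretch in which most genes were lower. ACSL6, an acyl-CoA synthetase, was close to the floor with 5 counts in WT, 27 in 11H1 and 6 in 14B5.

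Of 6 members of matrix, adhesion and membrane, SPARC stood at 103, 99.3 and 102 CPM in WT, at 57.6, 60.2 and 59.0 in 11H1 and at 57.0, 58.5 and 57.3 in 14B5. The clones were close in level and both were far below WT, at 58.0% and 56.7%. CTNNA1 was at 78.2% and 75.1%, and the calcium-dependent membrane binder ANXA6 at 57.5% in 11H1 but 86.0% in 14B5. P4HA2, a collagen prolyl hydroxylase (chr5:132191838-132295315, minus strand), had 150 counts over the WT libraries against 4 in 11H1 and 3 in 14B5, which is 3.06% (0.823% to 8.0%) and 1.71% (0.348% to 5.09%) of WT. Among members with at least 28 counts in WT, P4HA2 kept the lowest share of its WT level in both clones. ADAM19, a metalloprotease, was at 92.6% and 92.5% with overlapping libraries, and TGFBI, a matrix protein, had 3 counts in WT and 0 in both clones, too few for a fold.

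Receptors and signaling proteins were mixed (5 of 8, or 62.5%, lower in each clone, against 32.8% of all genes in 11H1 and 28.7% in 14B5). CSF1R, the receptor of macrophage colony-stimulating factor, had 64 counts over the WT libraries, 9 in 11H1 and 2 in 14B5, or 16.1% (7.06% to 32.6%) and 2.67% (0.316% to 10.04%) of WT. It is a monocyte marker as well, and the summed level of the 4 monocyte markers was 195 to 199 CPM in WT, 101 to 109 in 11H1 and 111 to 123 in 14B5, with 1 of the 4 averaging 1 CPM or more; its part in the result was not tested. PDGFRB, a receptor of platelet-derived growth factor, had 229, 121 and 129 counts, or 60.6% (48.2% to 75.9%) and 48.1% (38.5% to 59.97%) of WT. TNIP1 went from 76.3, 74.8 and 78.1 CPM in WT to 36.9, 37.0 and 36.4 in 11H1 and 39.2, 45.0 and 41.7 in 14B5. CYFIP2, a subunit of the WAVE complex, was at 67.1% and 54.9%.

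DOCK2, a Rac activator of blood cells (chr5:169637247-170083382, plus strand), stood at 52.1, 54.0 and 57.9 CPM in WT, at 74.4, 66.5 and 78.8 in 11H1 and at 37.48, 40.50 and 40.995 in 14B5. The 3 groups were fully separated, with 11H1 above and 14B5 below WT. CDC42SE2, a CDC42-binding protein, was at 78.7% of WT in 11H1 and 95.1% in 14B5. RAPGEF6, an activator of Rap GTPases, and FNIP1, a folliculin partner, the members next to it on the chromosome, were at 108% and 109% in 11H1 and at 103% and 109% in 14B5.

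Of the 6 members of transcription and chromatin, SMAD5, a mediator of BMP signaling, was at 60.2% and 70.4% of WT, PWWP2A, a reader of H2A.Z nucleosomes, at 60.6% and 66.3%, and AFF4, the scaffold of the super elongation complex, at 75.3% and 66.7%. KDM3B, a histone H3 lysine demethylase, was at 81.5% and 76.9%. TCF7, a Wnt pathway factor, was low, with 137 counts over the WT libraries, 61 in 11H1 and 71 in 14B5. BRD8, a subunit of the TIP60 acetyltransferase complex, behaved otherwise, at 64.9, 63.6 and 69.6 CPM in WT, 92.8, 89.5 and 92.5 in 11H1 and 63.5, 63.0 and 65.3 in 14B5. It was higher in 11H1 alone, as was FAM13B, at 139% of WT in 11H1 and 103% in 14B5. The remaining members TTC1 (44.7% and 56.7%), ZCCHC10 (62.7% and 83.2%) and C5orf15 (65.1% and 87.1%) have less settled roles.

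Paralogs give a comparison with related genes that do not lie on chromosome 5. Of 34 tested paralogs, 11 were lower and 10 higher in 11H1 (32.4% and 29.4%, against 32.8% and 31.8% of all genes). In 14B5, 6 were lower and 12 higher (17.6% and 35.3%, against 28.7% and 24.9% of all genes). Their shares were thus near those of all genes in 11H1, and in 14B5 fewer were lower and more were higher. In 33 pairs with both genes tested, the member was lower than its paralog in 30 pairs in 11H1 and in 28 in 14B5. The medians were -0.51 and -0.44 for the members and -0.03 and 0.04 for the paralogs; the members' side of this was fixed by the choice.

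UBE2A, which shares the function of UBE2B, stood at 63.4, 65.4 and 63.7 CPM in WT, 62.0, 66.2 and 64.7 in 11H1 and 75.5, 72.3 and 72.2 in 14B5. It differed by 0.01 on the log2 scale in 11H1 (edgeR adjusted p = 0.887) and higher by 0.18 in 14B5 (adjusted p = 0.00785). KIF20B, a relative of KIF20A, rose by 0.57 and 0.69 on the log2 scale (edgeR adjusted p = 1.78e-05 and 1.82e-05), HSPH1 (of HSPA4) by 0.30 and 0.18 (0.000272 and 0.0217) and SEC24B (of SEC24A) by 0.26 and 0.21 (0.00141 and 0.0199). VDAC2 fell with VDAC1, by 0.45 and 0.16 (edgeR adjusted p = 2.02e-06 and 0.0117), by less than VDAC1 itself (-1.04 and -0.84).

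Some paralogs fell as much as their member or more. SMAD1 stood at 11.1, 11.6 and 12.4 CPM in WT, at 2.46, 2.28 and 2.89 in 11H1 and at 1.60, 1.86 and 1.58 in 14B5 (log2 fold changes -2.20 and -2.81, edgeR adjusted p = 7.29e-09 and 1.56e-08), a far deeper fall than that of SMAD5. P4HA1 fell by 1.98 and 0.98 (4.7e-10 and 5.78e-06), CYFIP1 by 0.56 and 0.58 (8.86e-07 and 6.88e-06) and ANXA11 by 0.66 and 0.44 (2.99e-07 and 2e-05).

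**Figure D4:**
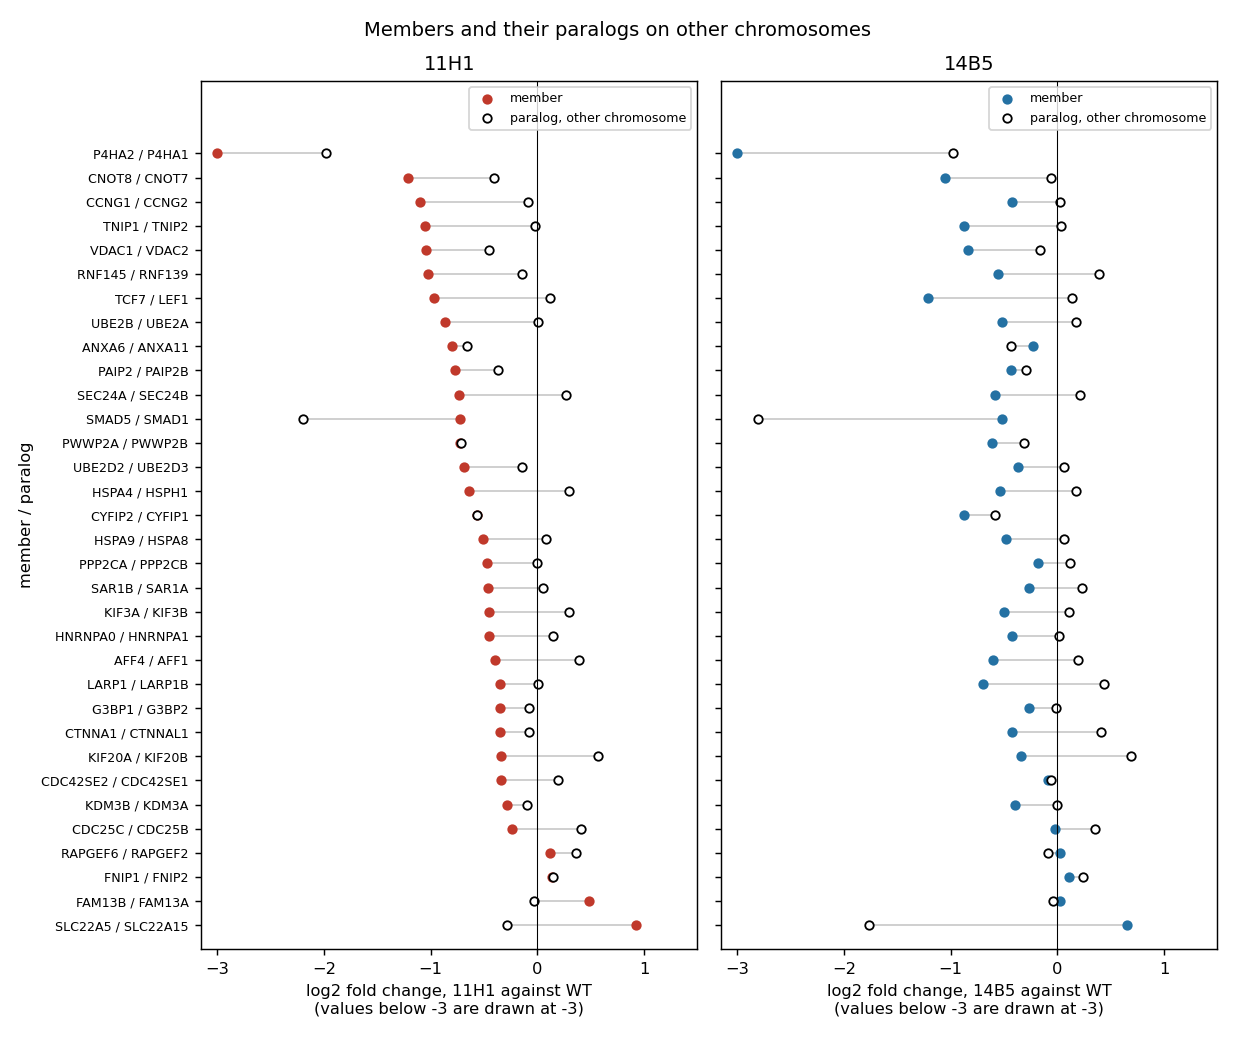
Log2 fold change against WT of members (filled) and of their paralogs on other chromosomes (open) in 33 pairs, joined by a line and ordered by the member in 11H1; values below -3 are drawn at -3. The filled point lies left of the open one in 30 pairs in 11H1 and 28 in 14B5, with SMAD5 and SMAD1 the widest exception among the members that were lower.

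Of 19 further genes named in studies of del(5q) that are no members, 17 were tested. Of the 7 inside the stretches, which the choice rested on, 7 were lower in 11H1 and 4 in 14B5 (100% and 57.1%, against 32.8% and 28.7% of all genes). Of the 10 outside, 7 were lower and 2 higher in 11H1 (70%; all genes 32.8% lower) and 5 lower and none higher in 14B5 (50%; all genes 28.7% lower), with medians of -0.45 and -0.22. HDAC3, a histone deacetylase, fell by 0.82 and 0.72 on the log2 scale, DIAPH1, a formin, by 0.45 and 0.60, and CSNK1A1, the casein kinase degraded under lenalidomide, by 0.61 and 0.36. These 3 lie between the stretches, an interval whose edges rest on the same libraries, and they are counted among the 10. The shares of the 10 are thus in part a description, and they were not split by place. APC, a restraint on Wnt signaling that lies below 130 Mb, was higher by 0.68 in 11H1 (edgeR adjusted p = 3.22e-06) and by 0.16 in 14B5, where it did not pass (adjusted p = 0.0834).

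The clones differed from each other in 33 of the 56 tested members. In 11H1 against 14B5, 26 of 56 members were lower in 11H1 (46.4%) and 7 higher (12.5%), where 32.1% of all 16352 tested genes were lower and 31.6% higher, and the median was -0.12 (all genes 0.00). Every 11H1 library was below every 14B5 library for 30 of 56 (53.6%; 35.1% of all tested genes) and above for 7 (12.5%; 33.6%). The widest gaps among the lower members were CCNG1 (log2 fold change -0.69 ± 0.05, SE; edgeR adjusted p = 4.79e-07), ANXA6 (-0.58 ± 0.08; 7.47e-05), GM2A (-0.52 ± 0.05; 5.65e-06), RPS14 (-0.49 ± 0.06; 3.01e-05) and RNF145 (-0.49 ± 0.05; 2.64e-06). The widest among the higher were DOCK2 (0.89 ± 0.06; 2.84e-07), BRD8 (0.52 ± 0.04; 7.66e-07), FAM13B (0.44 ± 0.06; 6.22e-05), LARP1 (0.33 ± 0.04; 2.6e-05) and CYFIP2 (0.30 ± 0.05; 0.000512). For CLINT1 (0.01 ± 0.05; 0.856), SPARC (0.04 ± 0.04; 0.459), HSPA9 (-0.04 ± 0.04; 0.401) and GEMIN5 (-0.02 ± 0.04; 0.722) no difference passed the threshold. With the length trend removed, PTTG1 went from -0.23 to -0.12 (edgeR adjusted p = 0.0615), DDX46 to 0.11 (0.0524) and AFF4 to about 0 (0.999), none past the threshold.

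By role, 6 of 7 members of the ubiquitin, phosphatase and chaperone group were lower in 11H1 than in 14B5 (85.7%). So were 4 of 6 cell cycle members (66.7%). RNA processing and translation had 3 lower and 2 higher of 10 (30% and 20%). Over all tested genes 32.1% were lower and 31.6% higher. The groups are small and were drawn up with earlier results known, and differences between them were not tested. Transcript length moved with the difference between the clones. Over all protein-coding genes the median of 11H1 against 14B5 was -0.18 for the shortest tercile (longest transcript up to 2504 bases), -0.04 for the middle tercile (up to 4372 bases) and 0.08 for the longest. Among members it was -0.36 (10 of 12 lower), -0.18 (11 of 21 lower) and 0.02 (5 lower and 7 higher of 23). Members thus leaned in the direction that genes of their length did, with a lower median in each tercile, and all 7 higher members were in the longest tercile. With the length trend removed, 31 members were lower and 5 higher. In 11H1 against WT the medians also rose with length, from -0.13 to 0.05 over protein-coding genes and from -0.90 to -0.45 among members (shortest to longest tercile). In 14B5 against WT they went from 0.02 to -0.02 and from -0.46 to -0.43. A part of transcript length in these differences was otherwise not tested.

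**Figure D5:**
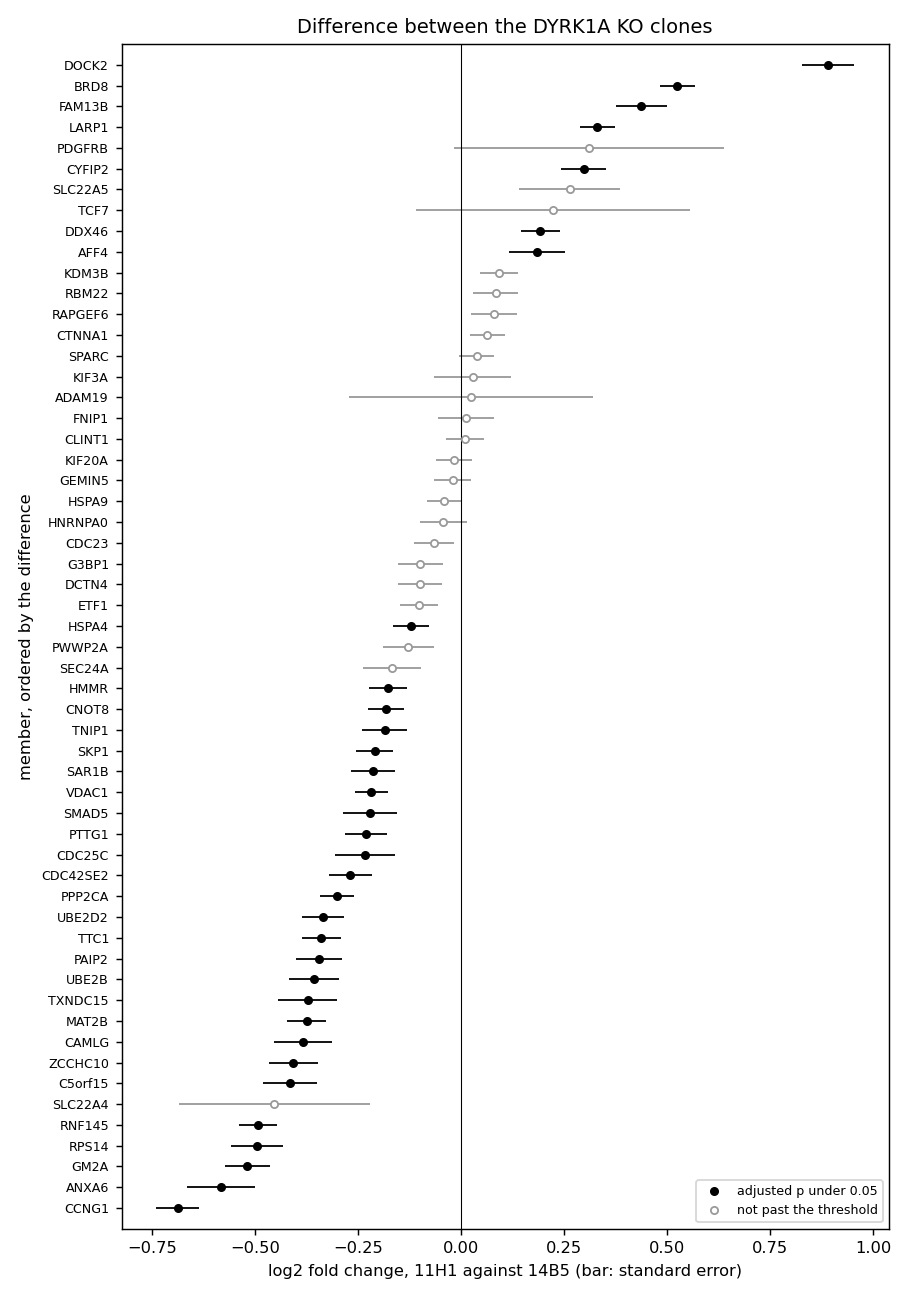
Log2 fold change of each tested member in 11H1 against 14B5 with its standard error (bar), ordered by size; filled points have an edgeR adjusted p under 0.05. DOCK2 and BRD8 lead the 7 members higher in 11H1, and CCNG1 and ANXA6 the 26 lower.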

How the data were processed

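RNA of 9 SET2 libraries was analysed, 3 of WT and 3 of each DYRK1A KO clone. The authors deposited 1 table of RSEM expected counts per gene, without normalization for depth or length; the submitters' processing notes name STAR 2.7.9a, Picard, RSEM and GRCh38, and the annotation release is not given in the sources used here. The labels name a SMARTER mRNA-Seq kit and the study's methods a stranded TruSeq kit, so whether counting used strand is open, and reads of overlapping antisense genes may be shared. RSEM divides reads that match several genes, which left 5.73% to 6.64% of the values in a library with a fractional part. For 13 members, among them RPS14 and VDAC1, the table also lists processed pseudogenes that can take or give such reads. The 92 spike-in entries were at 0. No column was left out.

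Expected counts were rounded, normalized by TMM and compared with edgeR 4.0.16 (R 4.3.3): low genes were dropped by filterByExpr, and p values of the quasi-likelihood F test were adjusted by Benjamini-Hochberg over all genes tested (threshold 0.05). Each clone was compared with WT and 11H1 with 14B5, 3 libraries against 3. A single gene under an exact permutation test could not go below p = 0.1 in that design. Intervals for low counts are exact 95% binomial intervals. Where a gene has no count, as many as 3 (0.0927 CPM in the smallest library) cannot be told from 0. Coordinates and lengths (the longest protein-coding transcript) came from GENCODE v29 by gene identifier without its version, which placed 58542 of 60662 genes. Promoters are RefSeq's on GRCh38.p14.

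Members, role groups, paralogs and partner lists were chosen with earlier results of these data known. The genes named were taken from all members, the listed paralogs, partners and del(5q) genes, and the 3 tested genes on each side of each edge of a stretch. The 5 largest falls and rises elsewhere on chromosome 5 at a mean of at least 1 CPM were added. Not every paralog, partner, del(5q) or edge gene is named. Alternatives were DESeq2 1.42.0 size factors, its Wald test, limma-voom (limma 3.58.1) on unrounded counts, no filter, protein-coding genes alone, the replicate number as a block, 3 groups in 1 fit and each library left out. Removing the trend with transcript length (lowess, span 0.3) was added after seeing the data. No library was a copy of another of its group (differences of 4.06 to 36.2 times counting noise). The code was also run on simulated tables with known changes.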

Additional observations from a re-analysis of the deposited data

Results flagged for a closer look

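The effect of a clone against WT differed between the clones for 33 of 56 tested members by the edgeR test of 11H1 against 14B5. Values are log2 fold changes of 11H1 against 14B5, with edgeR adjusted p under 0.05 each. Such calls were common in the whole table: of all 16352 tested genes, 32.1% were lower in 11H1 and 31.6% higher. Of the tested members, 46.4% were lower and 12.5% higher. A call between the clones thus does not by itself set a member apart from other genes. The members that were lower in 11H1 in the first stretch were CDC42SE2 (-0.27), ZCCHC10 (-0.41), HSPA4 (-0.12), C5orf15 (-0.42), VDAC1 (-0.22), SKP1 (-0.21), PPP2CA (-0.3), UBE2B (-0.36), SAR1B (-0.21), CAMLG (-0.38), TXNDC15 (-0.37), SMAD5 (-0.22), CDC25C (-0.23), PAIP2 (-0.35) and UBE2D2 (-0.34). In the second stretch they were RPS14 (-0.49), TNIP1 (-0.19), ANXA6 (-0.58), GM2A (-0.52), CNOT8 (-0.18), RNF145 (-0.49), TTC1 (-0.34), PTTG1 (-0.23), CCNG1 (-0.69), HMMR (-0.18) and MAT2B (-0.37). The members that were higher in 11H1 were AFF4 (0.18), DDX46 (0.19), FAM13B (0.44), BRD8 (0.52), LARP1 (0.33), CYFIP2 (0.3) and DOCK2 (0.89). AFF4, DDX46, HSPA4, SMAD5, CDC25C and PTTG1 lost this call under at least 1 of the alternatives run. AFF4 was the 1 of the 33 whose 11H1 and 14B5 libraries overlapped.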

How the results depend on the processing

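For the members, counts of lower and higher calls stayed within 1.5 times under each alternative run in all 3 contrasts, with 47 to 50 lower in 11H1 against WT, 45 to 47 in 14B5 against WT, and 24 to 31 lower and 5 to 10 higher in 11H1 against 14B5. Their median moved by more than the spread between libraries in a few settings: in 11H1 against WT it was -0.62 with the length trend removed, in 14B5 against WT -0.40 with no filter, and in 11H1 against 14B5 -0.085 with protein-coding genes alone, -0.18 with the length trend removed and -0.12 to -0.15 when 1 library was left out. Between the stretches, the median in 11H1 was -0.31 with no filter and -0.29 to -0.24 with 1 library left out, and in 14B5 -0.45 with no filter and -0.45 to -0.38 with 1 left out. Genes called higher there numbered 9 in 11H1 with the DESeq2 Wald test and 9 to 14 with 1 library left out (9 without 11H1 replicate 1), and in 14B5 1 with protein-coding genes alone and 2 to 4 with 1 left out (4 without WT replicate 3). Paralogs and partners off chromosome 5 lower in 14B5 numbered 9 to 19 with 1 left out (19 without WT replicate 3, against 12).

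In 11H1 against 14B5, signs reversed with the length trend removed for AFF4 (-9.6e-05), RAPGEF6 (-0.069), FNIP1 (-0.089), KIF3A (-0.067), KDM3B (-0.0147), ADAM19 (-0.073) and CLINT1 (-0.027), with no filter for FNIP1 (-0.011), ADAM19 (-0.0024) and CLINT1 (-0.013), and with protein-coding genes alone for KIF20A (0.023) and GEMIN5 (0.020). With 1 library left out the values ran from -0.064 to 0.044 for FNIP1, from -0.039 to 0.069 for KIF3A, from -0.052 to 0.56 for TCF7, from -0.0855 to 0.013 for HNRNPA0, from -0.24 to 0.18 for ADAM19 and from -0.026 to 0.026 for CLINT1. Of these, AFF4 alone had passed the threshold. Calls lost with 1 library left out were AFF4 (without 11H1 replicate 1 or 3 or 14B5 replicate 3), HSPA4 (without 11H1 replicate 1 or 2 or 14B5 replicate 1 or 2), SMAD5 (without 11H1 replicate 1) and CDC25C (without 14B5 replicate 2). Other calls lost were AFF4, DDX46 (0.11, adjusted p = 0.0524) and PTTG1 (-0.12, 0.0615) with the length trend removed, AFF4 with 3 groups in 1 fit (0.18, 0.106), HSPA4 with protein-coding genes alone (-0.081, 0.112) and CDC25C with the DESeq2 Wald test (-0.23, 0.0524). The cause was not tested.

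Same-numbered replicates did not deviate together (r of their deviations -0.145 to 0.0581), so the numbers do not pair the libraries. With the replicate number as a block, members lower numbered 48, 46 and 26 in the 3 contrasts and higher 5, 2 and 7, with medians of -0.55, -0.43 and -0.12. Paralogs and partners lower were 51 and 11, and higher 40 and 40. Between the stretches 43 and 48 were lower and 14 and 2 higher, with medians of -0.27 and -0.40. The block changed 2 of 56 member calls of 11H1 against 14B5 (HSPA4 lost, SEC24A gained). Depth limits CSF1R, P4HA2, TGFBI, ACSL6, SLC22A4, TCF7, PDGFRB and ADAM19, whose libraries held few counts.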

Other observations

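Genes were lower in both clones in other places of chromosome 5 too. At the far end of the short arm, of 28 tested genes in the first 5 Mb, 21 were lower and 3 higher in 11H1 (median -0.71) and 24 lower and 1 higher in 14B5 (median -0.86), although the short arm as a whole had medians of -0.12 and -0.14. From 10 to 15 Mb, 9 of 15 tested genes were lower and none higher in each clone (medians -0.34 and -0.43), and the 4 tested genes from 15 to 20 Mb had medians of -1.17 and -1.37. On the long arm, the 8 tested genes from 100 to 105 Mb had -0.79 and -0.51. Of all tested genes, 32.8% were lower and 31.8% higher in 11H1, and 28.7% lower and 24.9% higher in 14B5.

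Elsewhere on the chromosome, outside both stretches, the deepest falls were far larger than those of most members. CRHBP, a binding protein of corticotropin-releasing hormone, stood at 7.55 CPM in WT and at 0 in all libraries of both clones. NPR3, a clearance receptor of natriuretic peptides, went from 38.5 CPM in WT to 1.87 in 11H1 and 0.212 in 14B5, and VCAN, a matrix proteoglycan, from 3.17 to 0.341 and 0.0357. ARAP3, a GTPase-activating protein, went from 7.05 CPM to 1.88 and 0.0416, and MCTP1, a calcium-binding membrane protein, from 3.45 to 0.130 and 0.169. The largest rises there, ranked like the falls by the mean of both clones, were smaller in size. IRX1, a homeobox factor, went from 2.06 CPM in WT to 3.05 in 11H1 and 7.26 in 14B5, CCL28, a chemokine, from 8.17 to 15.2 and 13.4, C5orf63 from 1.93 to 5.61 and 3.28, SPEF2 from 1.22 to 2.09 and 2.47 and the long noncoding RNA AC026740.1 from 0.721 to 1.85 and 0.879. AC026740.1 did not pass in 14B5 (edgeR adjusted p = 0.512), where its libraries overlapped those of WT. The 11H1 libraries of IRX1 also overlapped those of WT (edgeR adjusted p = 0.0253).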
